A study of Mus musculus with 8 samples.

Results

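The transcripts described are 10 genes of the circadian clock and its output, namely Dbp, Tef, Hlf, Per1, Per2, Per3, Nr1d1, Nr1d2, Arntl and Npas2. They were chosen by name and include genes that cycle in phase with Dbp or opposite to it. The array carried 13 noncontrol probes with these gene names among 55681 probes with 34797 gene names, and 12 of the 13, covering all 10 genes, passed the filter that left 21709 probes in all. Olfactory bulb RNA of male C57BL/6J mice aged 56 days was hybridized to 8 one-colour arrays. The C-C pool held RNA of 7 mice reared in standard cages and kept in clean air, and the C-DE pool RNA of 7 mice reared in standard cages that inhaled diesel exhaust. The EE-C pool held RNA of 8 mice reared with environmental enrichment, a larger cage with a running wheel and toys, in clean air, and the EE-DE pool RNA of 9 enriched mice that inhaled the exhaust. Rearing began on gestational day 14. The C-DE and EE-DE mice breathed exhaust at 90 µg/m3 on postnatal days 28 to 55, 28 days in all with 8 h of exposure each. By the authors' methods each RNA pool was divided over 2 arrays as technical replicates. The arrays of a pool are therefore not read as a measure of variation between mice.

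For a clock gene the hour of sampling matters. Lights were on from 8 to 20 h in all groups and the chambers ran from 10 to 18 h. Necropsies took place 1 day after the last exposure, and the hour is not given in the sources used here. Both standard-cage pools sat in one column of the single slide and both enriched pools in the second, so rearing and slide column cannot be told apart. All 11 olfactory bulb markers searched (among them Th, Gad1, Tbx21 and Dcx) passed the filter, and their mean log2 level per array lay between 3.69 and 3.76. On 7 arrays 68.0% to 70.6% of noncontrol spots were well above background, and on the first EE-DE array 56.7%. In pooled tissue, fewer cells of a type and less RNA per cell cannot be told apart.

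The clock of mammalian cells is a feedback loop of transcription. The proteins encoded by Arntl (also called Bmal1) and by Clock or its paralogue Npas2 bind E-box sequences and switch on the Per and Cry genes, whose products then shut their activators off. The same E-boxes drive Nr1d1 and Nr1d2, the nuclear receptors Rev-erb alpha and beta, which repress Arntl, and Dbp, which with Tef and Hlf forms a family of activators that bind D-box sequences. The olfactory bulb is known to keep such a rhythm of its own. Transcripts of Dbp, the Per genes and the Nr1d genes therefore tend to peak together, and those of Arntl and Npas2 at the opposite time of day.

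Promoter sequences are given here for Dbp and for the genes whose windows held an E-box or a D-box. RefSeq windows of 250 bases before to 50 after each start (GRCm38.p6) were found for 9 of the 10 genes (all but Per2) and for Gm129, the symbol on the array for the clock repressor now called Ciart. The E-box was searched as CACGTG and the D-box as TTATGTAA, TTATGCAA or TTACGTAA, on both strands. These letters occurred in 7.15% and 1.78% of the 32851 windows of the table. The 250 bases before the start are printed 5′ to 3′, with E-boxes and D-boxes in capitals, from chr7:45704997-45705246 (plus strand) for Dbp, chr3:95882229-95882478 (minus) for Gm129, chr11:69098699-69098948 (plus) for Per1, chr4:151044666-151044915 (minus) for Per3 and chr15:81802423-81802672 (plus) for Tef.
Dbp: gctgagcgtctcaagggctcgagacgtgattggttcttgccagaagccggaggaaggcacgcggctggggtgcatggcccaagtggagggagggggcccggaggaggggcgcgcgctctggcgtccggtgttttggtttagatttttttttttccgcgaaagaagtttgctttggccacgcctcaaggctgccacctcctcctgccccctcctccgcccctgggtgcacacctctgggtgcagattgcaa
Gm129: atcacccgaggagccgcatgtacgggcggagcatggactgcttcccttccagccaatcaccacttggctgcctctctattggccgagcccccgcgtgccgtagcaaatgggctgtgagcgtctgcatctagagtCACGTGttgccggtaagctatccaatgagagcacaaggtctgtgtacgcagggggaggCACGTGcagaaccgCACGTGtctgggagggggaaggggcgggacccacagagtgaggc
Per1: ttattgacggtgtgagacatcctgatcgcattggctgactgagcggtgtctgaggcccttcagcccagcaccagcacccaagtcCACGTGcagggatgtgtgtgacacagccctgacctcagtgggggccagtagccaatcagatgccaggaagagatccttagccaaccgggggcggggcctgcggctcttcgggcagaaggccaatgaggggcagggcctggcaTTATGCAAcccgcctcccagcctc
Per3: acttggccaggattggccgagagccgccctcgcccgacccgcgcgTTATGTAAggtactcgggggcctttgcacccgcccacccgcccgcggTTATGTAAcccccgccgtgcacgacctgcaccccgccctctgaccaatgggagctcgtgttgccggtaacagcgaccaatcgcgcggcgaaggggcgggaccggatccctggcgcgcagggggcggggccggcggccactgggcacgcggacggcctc
Tef: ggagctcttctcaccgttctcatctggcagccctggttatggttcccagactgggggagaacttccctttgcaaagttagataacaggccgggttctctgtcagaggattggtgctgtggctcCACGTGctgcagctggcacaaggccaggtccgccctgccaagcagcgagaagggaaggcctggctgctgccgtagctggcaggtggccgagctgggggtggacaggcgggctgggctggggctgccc
The Gm129 window held 3 E-boxes, whose first bases lay at −116, −58 and −44 relative to the start. The first annotated start of Per1 had an E-box and, nearer to the start, the D-box TTATGCAA, and the window of its second start held none of the motifs. Per3 held a pair of D-boxes, and the window of each annotated start of Tef held 1 E-box. The cAMP response element TGACGTCA, found in 1.79% of windows, began at −9 relative to the start of Hlf. The letters TAGGTCA, the core of the element bound by Rev-erb and ROR receptors, occurred in 2.61% of windows and lay just after the second annotated start of Arntl (chr7:113207530-113207559, plus strand).
Arntl: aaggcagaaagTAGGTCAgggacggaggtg
No E-box or D-box letters were found in the windows of Dbp, Hlf, Nr1d1, Nr1d2, Arntl and Npas2. A match describes the letters of the window only. The lack of a match does not show that a gene lacks the element, since other letters and other positions were not searched.

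Dbp, the activator that is the most direct output of the loop, was higher in both enriched pools than in both standard-cage pools. Its brighter probe (chr7:52965461-52965520, mm9, plus strand) gave log2 signals, relative to the 75th percentile of the array, of 4.01 and 4.02 in C-C, 4.01 and 4.05 in C-DE, 4.77 and 4.67 in EE-C, and 4.49 and 4.62 in EE-DE. In intensity units before scaling, the standard-cage arrays lay between 10395 and 11492 and the enriched arrays between 16063 and 17903. No enriched array overlapped a standard-cage array.

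The second Dbp probe, on the same transcript (chr7:52965322-52965381), gave 3.73 and 3.70 in C-C, 3.93 and 3.86 in C-DE, 4.34 and 4.35 in EE-C, and 4.28 and 4.43 in EE-DE. It separated the rearing groups in the same way. In clean air the EE-C/C-C log2 fold change was 0.70 (0.64 to 0.76 over the 4 pairings of arrays), or 1.62-fold, for the brighter probe and 0.63 (0.61 to 0.65) for the second. In exposed mice the EE-DE/C-DE log2 fold change was 0.52 (0.44 to 0.61) and 0.46 (0.35 to 0.57), below the 1.5-fold threshold of 0.585 on the log2 scale.

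**Figure D1:**
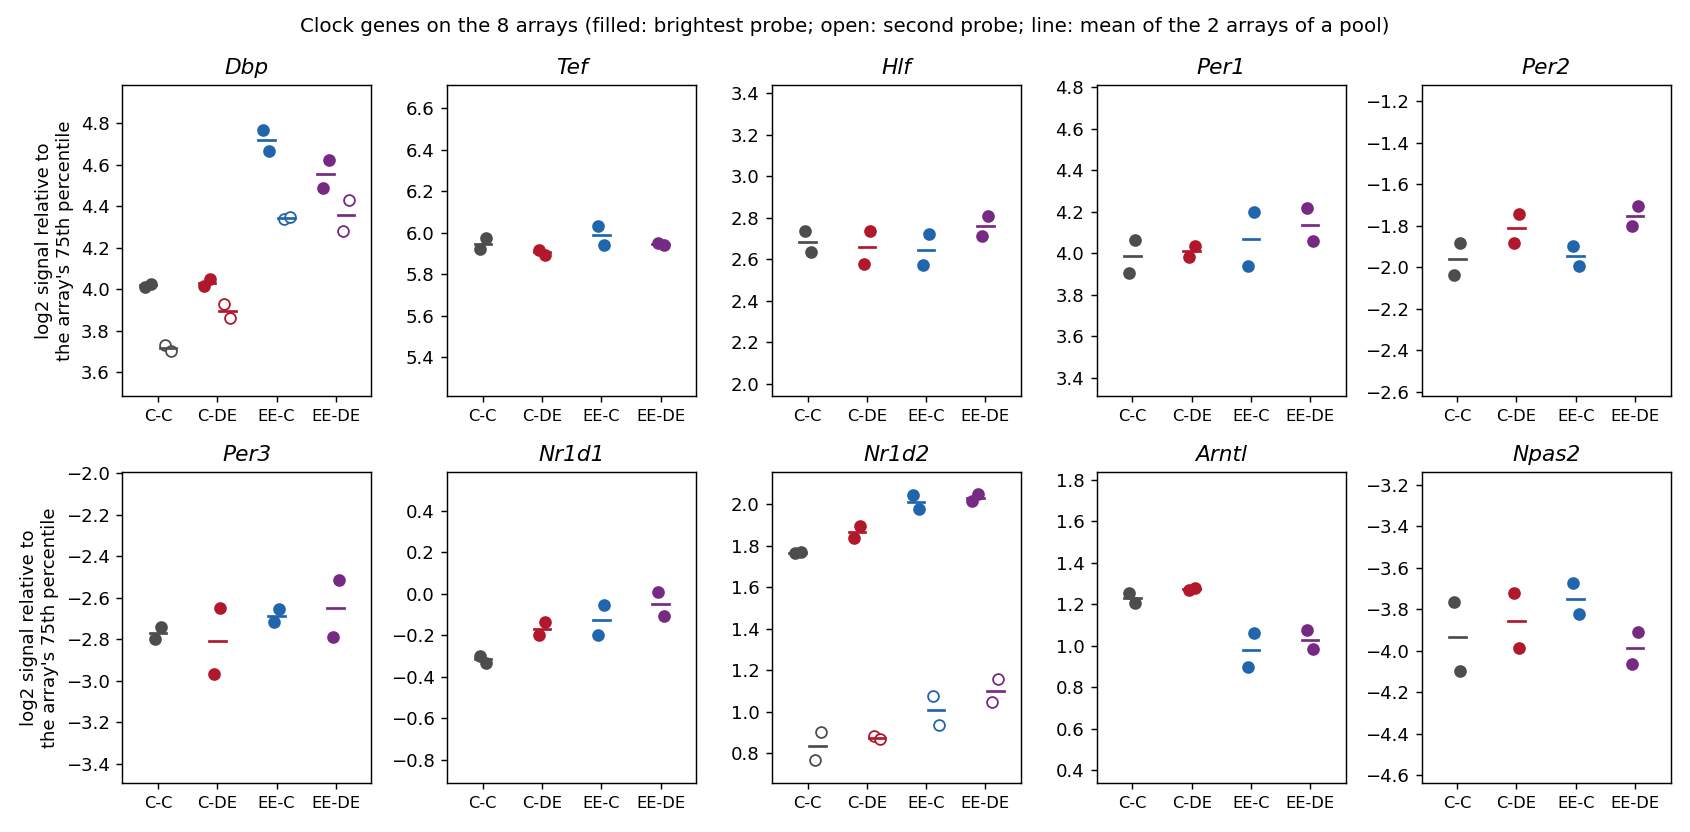
Log2 signal of each clock gene relative to the array's 75th percentile (y axis, 1.5 log2 units in every panel) in the 4 pools (x axis). Points are arrays, 2 per pool, filled for the brightest probe and open for a second passing probe, and lines are pool means. Dbp stood higher in EE-C and EE-DE, Nr1d2 did so by less, Arntl stood lower, and Tef and Hlf lay at nearly the same level in all 4 pools.

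Dbp was the only one of the 10 genes past 1.5-fold in EE-C/C-C, where 0.825% of all probes were past it in either direction. None of the 10 was past it in EE-DE/C-DE (0.636% of all probes) or in the comparisons with exposure, C-DE/C-C (0.576% of all probes), EE-DE/EE-C (0.944% of all probes) and EE-DE/C-C (0.815% of all probes). In EE-DE/C-C the brighter Dbp probe reached 0.54 (0.46 to 0.61) and the second 0.64 (0.55 to 0.73), so the probes fell on either side of the threshold. Without the first EE-DE array the brighter probe passed it in both EE-DE/C-DE (0.59) and EE-DE/C-C (0.60), and with normexp background correction it fell short of it in EE-C/C-C (0.57).

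Because each comparison rests on 1 pool a group, no test of a single comparison was possible. Averaged over both kinds of air, the enriched pools exceeded the standard-cage pools by 0.61 for the brighter Dbp probe and 0.54 for the second. In limma's additive fit of rearing and air over the 4 pool means, which has 1 residual degree of freedom, the rearing term of the brighter probe was 0.61 (SE 0.048, limma Benjamini-Hochberg adjusted p = 0.144). By p the Dbp probes ranked 1 and 2 among 21709 probes. No probe had an adjusted p under 0.05 for rearing, while 12.0% of probes had an unadjusted p under 0.05. The adjusted p of the brighter Dbp probe lay between 0.00643 and 0.482 over the alternatives. It was under 0.05 with the median as the scale (0.0212), with block medians subtracted (0.0312), and without the first C-C array (0.0164), the second C-DE array (0.00643), the first EE-C array (0.00687) or the first EE-DE array (0.0143).

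The other D-box activators did not share the size of this difference. Tef, whose product binds the same D-box as the Dbp protein, gave 5.92 and 5.98 in C-C, 5.92 and 5.89 in C-DE, 6.03 and 5.94 in EE-C, and 5.95 and 5.94 in EE-DE. Its log2 fold change was 0.04 in both EE-C/C-C (−0.04 to 0.11) and EE-DE/C-DE (0.02 to 0.06). Hlf, the remaining family member, gave −0.04 (−0.16 to 0.09) and 0.10 (−0.03 to 0.23), with arrays that overlapped in both comparisons. The additive fit put the rearing term of Tef at 0.04 (SE 0.034) and that of Hlf at 0.03 (SE 0.044), with limma adjusted p of 0.668 and 0.794.

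The Rev-erb genes, which repress Arntl, were higher in the enriched pools by a smaller amount. The brighter probe of Nr1d2 (Rev-erb beta) gave 1.76 and 1.77 in C-C, 1.84 and 1.89 in C-DE, 2.04 and 1.98 in EE-C, and 2.01 and 2.05 in EE-DE. All 4 enriched arrays lay above all 4 standard-cage arrays. The log2 fold change was 0.24 (0.21 to 0.28) in EE-C/C-C and 0.17 (0.12 to 0.21) in EE-DE/C-DE, and a second Nr1d2 probe gave 0.17 (0.04 to 0.31) and 0.23 (0.17 to 0.29).

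Nr1d1 (Rev-erb alpha) gave −0.30 and −0.33 in C-C, −0.20 and −0.14 in C-DE, −0.20 and −0.05 in EE-C, and 0.01 and −0.11 in EE-DE. Its 60-base probe spans 503 bases of the genome (chr11:98630526-98631028, mm9, minus strand) and therefore crosses a splice junction. The enriched arrays lay above the standard-cage arrays within each kind of air, by 0.19 (0.10 to 0.28) and 0.12 (0.03 to 0.21). The first was 0.12 with normexp correction and also without the second EE-C array, and the second was 0.06 without the first EE-DE array. Across air the C-DE and EE-C arrays overlapped. In the additive fit the rearing term was 0.21 (SE 0.039, limma adjusted p = 0.258) for Nr1d2 and 0.15 (SE 0.047, limma adjusted p = 0.347) for Nr1d1.

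The Per genes, the repressors of the core loop, differed little. Per1 gave 3.91 and 4.06 in C-C, 3.98 and 4.04 in C-DE, 3.94 and 4.20 in EE-C, and 4.22 and 4.06 in EE-DE. Its EE-C/C-C difference of 0.08 (−0.12 to 0.29) lay within the spread of duplicate arrays, and in EE-DE/C-DE the arrays did not overlap (0.13, 0.02 to 0.23). The latter was 0.08 with normexp correction, 0.05 without the first EE-DE array and 0.21 without the second. A second Per1 probe was well above background on 7 of the 8 arrays and was left out by the filter.

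Per2 differed by 0.01 (−0.11 to 0.14) and 0.06 (−0.06 to 0.18) between rearing conditions, and Per3 by 0.08 (0.03 to 0.14) and 0.16 (−0.14 to 0.45). In EE-C/C-C, Per3 gave 0.06 with normexp correction and 0.05 without the second EE-C array. Per3 duplicates lay 0.32 apart in C-DE and 0.27 apart in EE-DE, against a median gap over all probes of 0.07 and 0.06. The level of Per3 was thus poorly fixed in both exposed pools.

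Arntl, the activator that cycles opposite to Dbp, was lower in the enriched pools. It gave 1.26 and 1.21 in C-C, 1.27 and 1.28 in C-DE, 0.90 and 1.06 in EE-C, and 1.07 and 0.98 in EE-DE. Every enriched array lay below every standard-cage array. The log2 fold change was −0.25 (−0.36 to −0.14) in EE-C/C-C and −0.24 (−0.30 to −0.19) in EE-DE/C-DE. The rearing term of the additive fit was −0.25 (SE 0.038, limma adjusted p = 0.251), which ranked 36 among all probes.

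Npas2, which can stand in for Clock, did not follow Arntl. Its only probe was the dimmest of the 12 that passed, with log2 signals between −4.10 and −3.67 (41.2 to 51.5 intensity units). Its duplicates lay 0.33 apart in C-C, the widest gap among the 10 genes there. It gave 0.18 (−0.06 to 0.43) in EE-C/C-C and −0.13 (−0.34 to 0.08) in EE-DE/C-DE. The arrays overlapped in both comparisons.

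**Figure D2:**
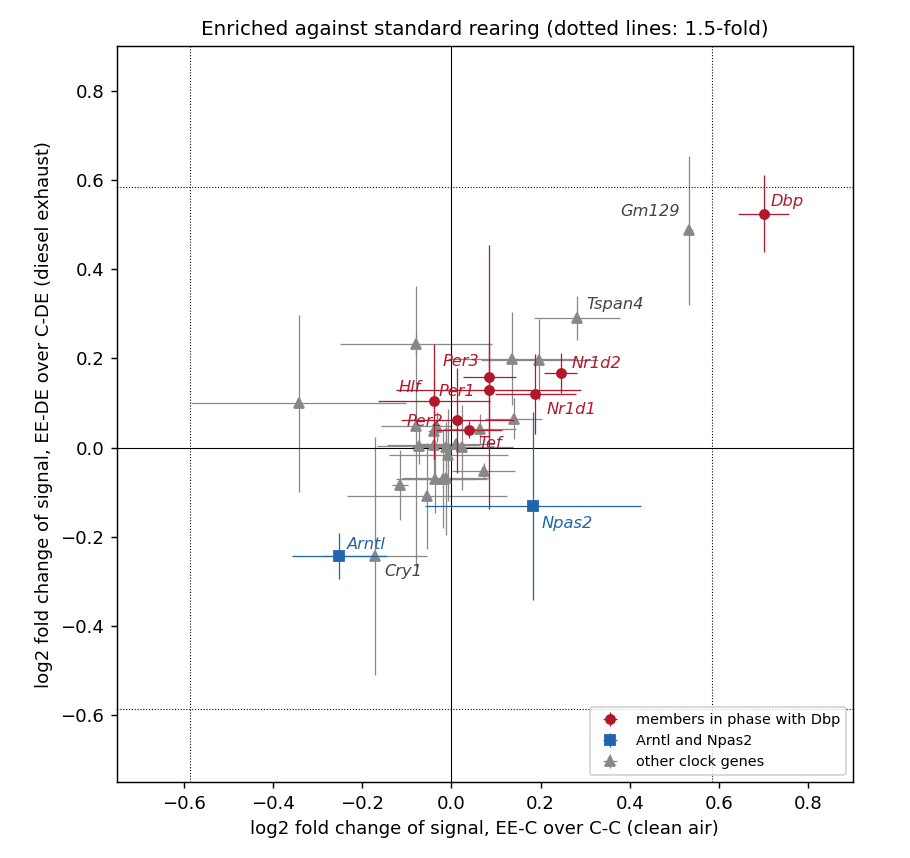
Log2 fold change of enriched over standard rearing in clean air (x axis) and in diesel exhaust (y axis) for the 10 clock genes (red and blue) and 24 other clock genes (grey). Bars span the 4 pairings of arrays and dotted lines mark 1.5-fold. Dbp lay at 0.70 and 0.52, Gm129 at 0.53 and 0.49, Tspan4 at 0.28 and 0.29 and Arntl at −0.25 and −0.24, while most other genes lay near the centre.

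The genes were also counted by phase. Of the 8 genes that cycle with Dbp, 7 were higher in EE-C/C-C and 8 in EE-DE/C-DE, against 52.5% and 50.0% of all probes, with medians of 0.08 and 0.12 against 0.01 and 0.00 over all probes. These counts include small differences. Over 18 alternatives the sign of Dbp, Nr1d1, Nr1d2 and Arntl was the same in both comparisons, whereas that of Tef and Per2 turned in at least 1 alternative in each. Not all 18 could change a value. Looser filters kept the value of a probe, as did leaving out an array of a pool outside the comparison.

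The EE-C and C-C arrays did not overlap for 4 higher genes (Dbp, Per3, Nr1d1 and Nr1d2) and 1 lower gene (Arntl) of the 10, against 20.2% and 17.5% of all probes. The EE-DE and C-DE arrays did not overlap for 5 higher genes (Dbp, Tef, Per1, Nr1d1 and Nr1d2) and 1 lower gene (Arntl), against 21.2% and 21.0%. The comparisons share no pool. Dbp, Nr1d1 and Nr1d2 were higher without overlap in both, 3 of 10 genes against 6.79% of all probes. Arntl alone was lower in both, 1 of 10 against 5.92%.

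When all 4 enriched arrays were set against all 4 standard-cage arrays, Dbp and Nr1d2 lay above without overlap, as did 4.04% of all probes, and Arntl lay below, as did 3.40%. Dbp was the only gene of the 10 with a mean difference past 1.5-fold there, where 0.309% of all probes were past it, and it fell short with normexp correction (0.52), with block medians subtracted (0.58), with the probes of a gene averaged and without the second EE-DE array (0.58).

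On these arrays, Dbp took no common direction with diesel exhaust. For RT-PCR of individual mice, the paper reports a main effect of exposure on Dbp without an exposure by rearing interaction. There Dbp was higher in C-DE than in C-C, and the paper reports no significant exposure effect in enriched mice. In standard cages (C-DE/C-C) the brighter Dbp probe differed by 0.01 (−0.01 to 0.04) and the second by 0.18 (0.13 to 0.23). In enriched cages the EE-DE/EE-C difference was −0.16 (−0.28 to −0.04) for the brighter and 0.01 (−0.07 to 0.09) for the second. The probes of Dbp thus disagreed on exposure in both rearing conditions. The EE-DE/EE-C difference of the brighter probe was −0.05 with block medians subtracted, −0.11 with normexp correction, −0.08 when averaged with the second probe and −0.10 without the first EE-DE array.

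Among the remaining genes, C-DE exceeded C-C without overlap for Nr1d1 (0.15, 0.10 to 0.20), Nr1d2 (0.10, 0.07 to 0.13) and Arntl (0.04, 0.01 to 0.07), 3 of 10 against 18.5% of all probes. The second Nr1d2 probe gave 0.04 (−0.03 to 0.11), with arrays that overlapped. Tef was lower there (−0.04, −0.08 to −0.0011), 1 of 10 against 22.4%. EE-DE exceeded EE-C for Per2 (0.19, 0.10 to 0.29), 1 of 10 against 14.6%, and lay below it for Dbp and Npas2 (−0.24, −0.39 to −0.09), 2 of 10 against 19.6%. Normexp correction took Npas2 to −0.03 in EE-DE/EE-C and Nr1d2 to 0.03 and Arntl to 0.08 in C-DE/C-C. Block medians took Arntl to 0.08 and Tef to −0.03 in C-DE/C-C, and leaving out the first or the second C-C array took Arntl to 0.07 or 0.02 and Tef to −0.07 or −0.01. No gene of the 10 was on the same side without overlap in both exposure comparisons, which share no pool. The corresponding shares of all probes were 3.89% higher and 6.20% lower in both.

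In the additive fit, no gene of the 10 and no probe had an adjusted p under 0.05 for air, and 8.94% of probes had an unadjusted p under 0.05. The largest air term among the 10 was that of Per2, whose log2 signal lay between −2.04 and −1.88 on the 4 clean-air arrays and between −1.88 and −1.71 on the 4 exposed arrays. The first C-DE array and the second C-C array touched, and the term was 0.17 (SE 0.065, limma adjusted p = 0.540). Nr1d1 followed with 0.11 (SE 0.047, limma adjusted p = 0.557).

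**Figure D3:**
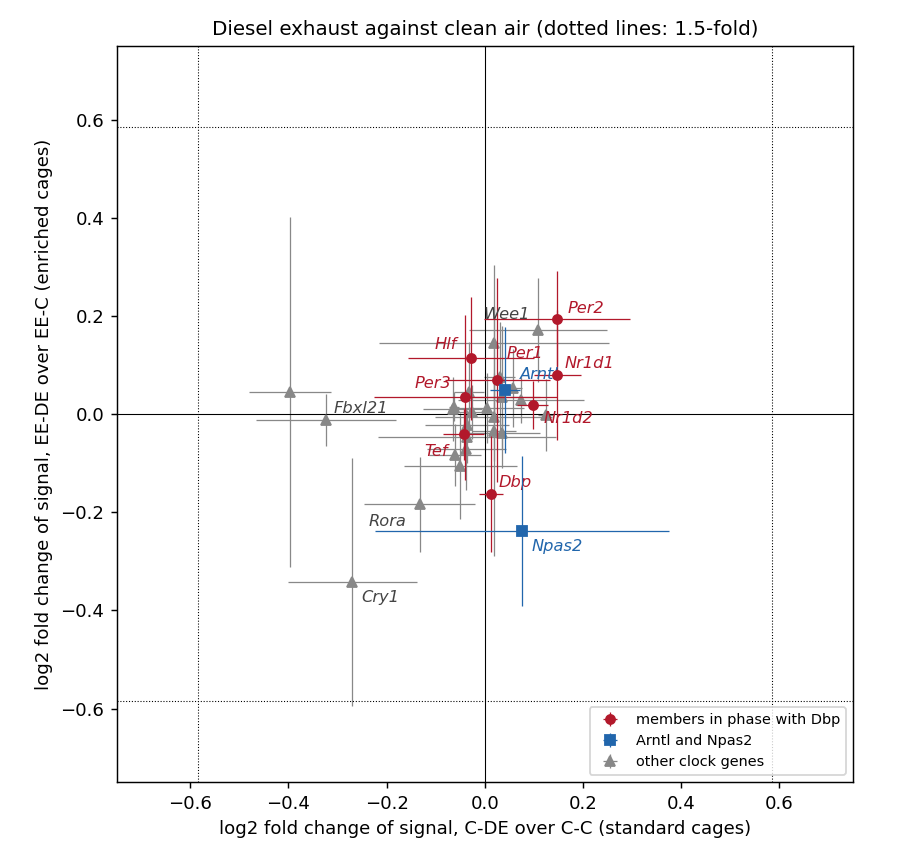
Log2 fold change of diesel exhaust over clean air in standard cages (x axis) and in enriched cages (y axis) for the 10 clock genes (red and blue) and 24 other clock genes (grey). Bars span the 4 pairings of arrays and dotted lines mark 1.5-fold. No gene passed 1.5-fold on either axis, and Cry1, at −0.27 and −0.34, lay farthest from the centre among genes that were lower on both.

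EE-DE/C-C differs in both rearing and air. There Dbp, Per2 (0.21, 0.08 to 0.33), Nr1d1 (0.27, 0.19 to 0.34) and Nr1d2 (0.26, 0.24 to 0.28) were higher without overlap, 4 of 10 against 22.2% of all probes, and Arntl was lower (−0.20, −0.27 to −0.13), 1 of 10 against 24.8%. Nr1d2 gave 0.15 with normexp correction, and Per2 gave 0.13 without the first C-C array.

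A list of 24 other clock genes was read beside these 10, and all 24 passed the filter. None was past 1.5-fold in any of the 5 comparisons, and Gm129 reached it in EE-DE/C-DE without the second C-DE array (0.61) and in EE-DE/C-C without the first EE-DE array (0.61). Cry1 passed it in EE-DE/C-C without the second EE-DE array (−0.70), against −0.51 (−0.74 to −0.28) with all arrays, −0.33 without the first EE-DE array and −0.23 with normexp correction. Gm129 (Ciart) is a repressor that acts on the Clock and Arntl pair. It gave −2.65 and −2.66 in C-C, −2.70 and −2.46 in C-DE, −2.12 and −2.12 in EE-C, and −2.14 and −2.05 in EE-DE. Every enriched array lay above every standard-cage array, and the differences were 0.53 (0.52 to 0.54) in EE-C/C-C and 0.49 (0.32 to 0.65) in EE-DE/C-DE. The rearing term was 0.51 (SE 0.074, limma adjusted p = 0.239).

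Tspan4, a tetraspanin of the membrane, gave 0.28 (0.19 to 0.38) and 0.29 (0.24 to 0.34) in the same comparisons, with a rearing term of 0.29 (limma adjusted p = 0.238). Bhlhe40, a repressor that competes for E-boxes, gave 0.20 in both, and Usp2, a deubiquitinase, 0.14 and 0.07. These 4 genes of 24 were higher without overlap in both rearing comparisons, against 6.79% of all probes. Only Btrc, a ubiquitin ligase subunit, was lower in both (−0.11 and −0.08), 1 of 24 against 5.92%, a share below that of all probes. The arrays of a second Btrc probe overlapped in both comparisons. It gave −0.80 and −0.73 in C-C and −0.51 and −0.80 in EE-C. Clock itself differed by −0.01 (−0.14 to 0.13) and −0.02 (−0.12 to 0.09).

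With exposure, 3 of the 24 were lower without overlap in both rearing conditions, against 6.20% of all probes. Cry1, the partner of the Per repressors, gave −2.96 and −2.87 in C-C, −3.27 and −3.10 in C-DE, −3.02 and −3.15 in EE-C, and −3.61 and −3.24 in EE-DE. The exposed arrays were lower within each kind of rearing, by 0.27 and 0.34 on the log2 scale, and C-DE 2 overlapped EE-C 2 across rearing. In EE-DE/EE-C its difference was −0.16 without the first EE-DE array and −0.53 without the second, and with normexp correction it was −0.11 there and −0.16 in C-DE/C-C. The air term was −0.31 (SE 0.094, limma adjusted p = 0.475). Rora, an activator of Arntl, gave −0.13 and −0.18, and Bhlhe41 −0.06 and −0.08. The arrays of a second Bhlhe41 probe overlapped in both comparisons. It gave −2.80 and −2.82 in C-C and −2.75 and −2.85 in C-DE.

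**Figure D4:**
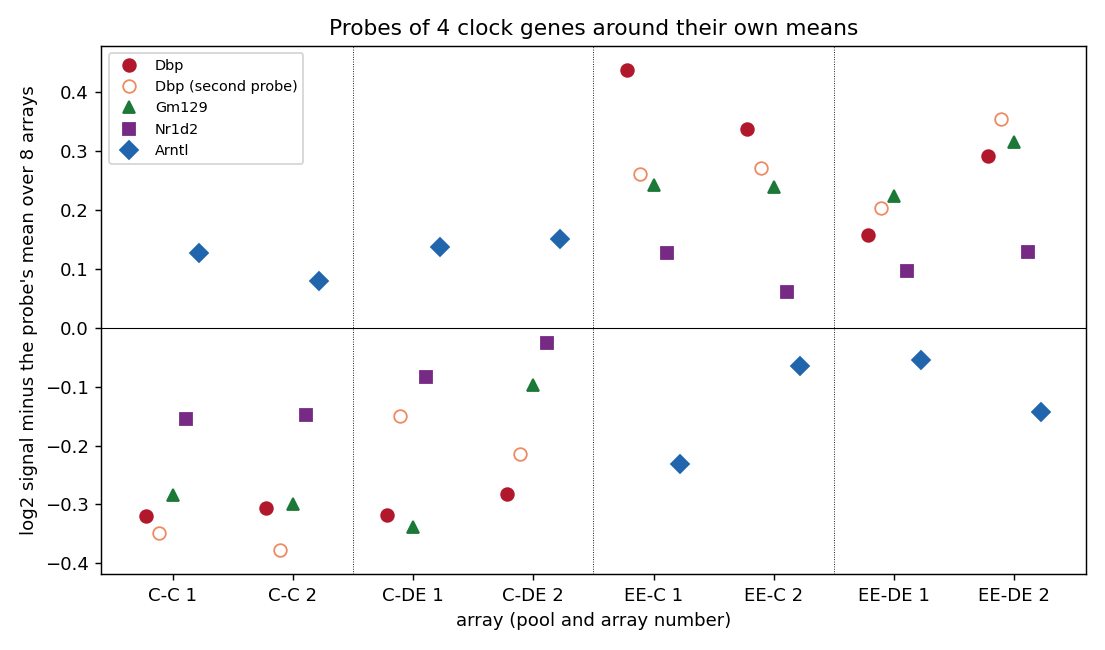
Log2 signal of 5 probes of 4 clock genes minus the probe's own mean over the 8 arrays (y axis), by array (x axis). Both Dbp probes and Gm129 lay below 0 on the 4 standard-cage arrays and above 0 on the 4 enriched arrays, Nr1d2 did so with a smaller step, and Arntl took the opposite sign on all 8 arrays.

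The likeness of other genes to Dbp was measured as the root mean square difference from its brighter probe over the 8 arrays, each probe centred on its own mean. The second Dbp probe lay at 0.100 (log2) and the median of all probes at 0.322. Of all gene names, Gm129 lay nearest at 0.105. It was followed by Klb at 0.122, the co-receptor of an endocrine growth factor, Loxl2 at 0.124, a lysyl oxidase, Mrap at 0.156, an accessory protein of the melanocortin receptor, and Lefty1 at 0.160, a secreted inhibitor of Nodal. These genes had far dimmer probes than Dbp. Mean log2 levels were −4.54 for Klb, −2.53 for Loxl2, −3.56 for Mrap and −2.87 for Lefty1, against 4.33 for the brighter Dbp probe. Within the 10 genes, Nr1d2 was nearest at 0.217 and Arntl farthest at 0.445.

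Other lists of genes were read on the same arrays. Immediate early genes, which follow neuronal activity, had a mean above that of the standard-cage pool for 10 of 10 genes in EE-C/C-C, against 52.5% of all probes, and for 9 of 10 in EE-DE/C-DE, against 50.0%, with medians of 0.19 in both. The arrays did not overlap for 1 and 2 of the 10, against 37.7% and 42.2% of all probes. Their summed linear level lay between 74.3 and 92.3 on the standard-cage arrays and between 79.0 and 113 on the enriched arrays, and their part in the clock gene differences was not tested. Olfactory mucosa markers (9 genes of supporting cells and glands, all past the filter) were summed in the same way and lay between 7.69 and 13.3 in C-C, 4.00 and 5.03 in C-DE, 4.72 and 12.4 in EE-C, and 10.9 and 17.8 in EE-DE. Their medians were −0.32 in EE-C/C-C and 1.67 in EE-DE/C-DE. Within the EE-C pool, the mean log2 level of these 9 genes was −0.18 on the first array and −1.53 on the second. The median gap over all probes was 0.10 there, and the source of this difference within a pool was not tested. The arrays overlapped for all 9 genes in EE-C/C-C and for 0 in EE-DE/C-DE, and the part of these markers in the clock gene differences was not tested. The median of the olfactory bulb markers was −0.01 and −0.05. On the first EE-C array, spots in the block around the brighter Dbp probe lay 0.148 (log2, median) above their mean over the 8 arrays. Those around the second probe lay 0.020 above it. With block medians subtracted, the brighter probe gave 0.61 in EE-C/C-C and 0.55 in EE-DE/C-DE.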

How the data were processed

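RNA of each group was pooled by the authors, labelled with Cy3 and hybridized to 2 one-colour Agilent SurePrint G3 Mouse GE 8×60K arrays. The authors deposited the intensity of every spot as the scanner software (Agilent Feature Extraction 10.7.3.1) reported it, with local background subtracted per the file headers and no scaling between arrays. A series table of log2 values, also deposited, served as an alternative. Its values lay within 0.02 (log2) of the values computed here for 99.4% of probes.

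The 75th percentile of noncontrol spots was subtracted from the log2 of the processed signal of each array. It lay between 644 and 716 intensity units. The filter required a GenBank or RefSeq accession, signal well above background on each of the 8 arrays and no outlier flag, and spots of a probe were averaged, which left 21709 probes. A gene was given by its brightest passing probe. Log2 fold changes compare pool means of 2 arrays and carry their range over the 4 pairings of arrays. The thresholds were 1.5-fold and no overlap of the arrays. With 1 pool a group these are descriptions, and the number of arrays limits their precision. The sample labels assigned all 8 arrays.

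The mean over both rearing or both exposure comparisons and the additive fit of rearing and air to the 4 pool means (limma 3.58.1, trended empirical Bayes, Benjamini-Hochberg adjustment over 21709 probes) were chosen after seeing the data. Its p-values assume that rearing and air add and that 1 pool stands for its group. Alternatives were normexp correction (offset 50), quantile normalization, the median as the scale, the series table, the looser signal flag, no outlier filter, all noncontrol spots, block medians, linear means, the mean over the probes of a gene, 1.5-fold in all 4 pairings and leaving out each array.

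Named genes are the 10 clock genes, members of the list of 24 other clock genes and the 5 gene names nearest to Dbp. A further member of the list of 24 is not reported here. Genes of marker lists are named as examples, and the glucocorticoid response genes were chosen after their values were seen. Marker lists covered the olfactory bulb, olfactory sensory neurons, olfactory mucosa, bone, red blood cells, immediate early genes and glucocorticoid response genes. The genes and lists were chosen with earlier results of these data known, so no pattern here is independent support for them. Genes are named as in the array files, and 11 of 11 member probes with a RefSeq accession had the same symbol in a RefSeq table of GRCm38.p6. Promoter windows came from RefSeq. The steps were tested on simulated data with planted changes. Python 3.11.15, numpy 2.4.6, pandas 2.3.3, matplotlib 3.10.9 and R 4.3.3 were used.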

Additional observations from a re-analysis of the deposited data

How the results depend on the processing

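No paired analysis was possible because each group is 1 pool and its replicate numbers only name technical arrays. No alternative reversed a value past 1.5-fold, and among the 10 clock genes only Dbp had such a value. The EE-DE/C-DE difference of Tef, whose arrays did not overlap, kept its sign in 17 of 18 alternatives and was −0.0038 with normexp correction. Not all of these alternatives could change that difference. Among the 10 clock genes, 1 was past 1.5-fold in EE-DE/C-C when the probes of a gene were averaged, 0 in EE-C/C-C with normexp correction, and 0 for the mean of both rearing differences with normexp correction, block medians or averaged probes. Leaving out single arrays gave 0 to 1 gene in EE-DE/C-C, in EE-DE/C-DE and for that mean (1 without the first EE-DE array in both comparisons, 0 without the second EE-DE array for the mean), and 1 in every case in EE-C/C-C. The 24 other clock genes gave 0 to 1 in EE-DE/C-C (1 without either EE-DE array) and in EE-DE/C-DE (1 without the second C-DE array).

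The count of all probes past 1.5-fold was 125 in C-DE/C-C, 205 for exposure in enriched cages (EE-DE/EE-C), 177 for both factors (EE-DE/C-C), 179 for rearing in clean air (EE-C/C-C) and 138 for rearing in exhaust (EE-DE/C-DE). In the same order it was 572, 827, 772, 645 and 674 with the looser signal flag, 220, 378, 397, 319 and 250 with all noncontrol spots, and 23, 17, 24, 10 and 38 when all 4 pairings had to pass. Normexp correction gave 38, 136 and 51 in the first 3 and 53 in EE-DE/C-DE. Leaving out single arrays gave 112 to 218, 205 to 396, 177 to 296, 179 to 398 and 138 to 262. The highest count for C-DE/C-C came without C-C 2, in EE-C/C-C and EE-DE/EE-C without EE-C 2, and for the remaining ones without EE-DE 2.

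In the additive fit, the median as the scale gave 2 probes at an adjusted p under 0.05 for rearing, 1 clock gene among them, and 29 for air. Block medians gave 1 probe for rearing, and 1 clock gene. Leaving out single arrays gave 0 to 11 probes and 0 to 1 clock gene (Dbp) for rearing, and 0 to 37 probes for air, the most without the first EE-C array and the second C-DE array. The cause of these shifts was not tested.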

Other observations

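Some Per and output genes are also known targets of glucocorticoids, and a list of 9 glucocorticoid response genes, all of which passed the filter, was read on the same arrays. Its median log2 fold change was 0.05 in EE-C/C-C and −0.01 in EE-DE/C-DE. Without overlap, 2 of the 9 genes were higher and 1 lower in EE-C/C-C, against 20.2% and 17.5% of all probes, and 1 was higher and 2 lower in EE-DE/C-DE, against 21.2% and 21.0%. Sgk1, a kinase induced by these hormones, was the only gene of the list above without overlap in both, by 0.30 (0.18 to 0.41) and 0.15 (0.07 to 0.22). Fkbp5, a chaperone of the hormone receptor, gave 0.13 (0.08 to 0.18) in EE-C/C-C and −0.01 (−0.11 to 0.10) in EE-DE/C-DE. The lower genes were Zbtb16 (−0.08) in EE-C/C-C, and Cdkn1a (−0.10) and Errfi1 (−0.03) in EE-DE/C-DE.

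Fbxl21, a ubiquitin ligase subunit that acts on Cry proteins, gave −0.32 (−0.47 to −0.18) in C-DE/C-C and −0.01 (−0.07 to 0.04) in EE-DE/EE-C. The difference between rearing conditions was not tested.

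The remaining marker lists did not keep a direction between the rearing comparisons, apart from red blood cells. The median of 9 markers of olfactory sensory neurons was −0.10 in EE-C/C-C and 0.35 in EE-DE/C-DE, that of 6 bone genes was −0.47 and 0.27, and that of 3 red blood cell genes was 0.05 and 0.21.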
